A study of Mus musculus with 10 samples.

Results

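The 8 genes described here carry signals from insulin and related growth factors to the Foxo transcription factors in blood stem cells: the Foxo factors Foxo1 and Foxo3, the receptors Insr and Igf1r, the adaptor Irs2, the kinase Akt1, the PI3K brake Pik3ip1 and the Foxo-responsive gene Txnip. They were chosen by symbol, and every probe set annotated to 1 of these symbols alone was taken, 24 of the 45101 probe sets on the array (8 of 18193 genes). Expression was measured in 5 Mll-deficient mice, of genotype Mx1-cre;Mll F/F, and 5 control mice, of genotype Mll F/F without cre. Cre under the Mx1 promoter is switched on by interferon in many cell types, and all 10 mice had floxed Mll alleles. All were females aged 8 weeks with a B6.SJL-Ptprca Pep3b/BoyJ background. All received 3 injections of pI:pC, an interferon-inducing double-stranded RNA mimic, 48 hours apart, each of 10 µg per gram mouse with 50 µg added. On day 6 the stem cell-enriched LSK/CD48- fraction of the bone marrow was sorted, and the RNA of each mouse was hybridised to 1 Affymetrix Mouse Genome 430 2.0 array. Because only the Mll-deficient mice carried cre, cre itself and the loss of Mll cannot be told apart.

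Insulin and insulin-like growth factors bind receptor tyrosine kinases, which recruit adaptors of the Irs family and activate PI3K, a lipid kinase. PI3K brings Akt to the membrane, and Akt phosphorylates Foxo proteins, which then leave the nucleus and stop activating their target genes. In mouse blood stem cells, Foxo factors are known for keeping the cells quiescent and limiting reactive oxygen species. These factors are controlled largely at the protein level, so mRNA levels of the factors and of their targets are separate measurements.

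The sequences before the starts of 4 of these genes are shown: Txnip, Pik3ip1 and Igf1r because they hold the 4 probe sets with an unadjusted p under 0.05, and Irs2 because it had the highest positive difference of the 8 genes. Each is the 250 bases before a RefSeq start (GRCm38.p6), read 5′ to 3′ on the gene's strand. Txnip lies at chr3:96557707-96557956 on the plus strand, Pik3ip1 at chr11:3330481-3330730 on the plus strand, Igf1r at chr7:67952007-67952256 on the plus strand and Irs2 at chr8:11008930-11009179 on the minus strand. The start used for Pik3ip1 lies 11490 bases inside the annotated span of its gene. Capitals mark the motifs that were searched for on both strands.
Txnip: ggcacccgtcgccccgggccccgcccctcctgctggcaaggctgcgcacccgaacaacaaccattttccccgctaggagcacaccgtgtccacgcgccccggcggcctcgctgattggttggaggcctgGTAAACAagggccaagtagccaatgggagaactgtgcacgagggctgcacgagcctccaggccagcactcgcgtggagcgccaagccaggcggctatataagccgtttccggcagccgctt
Pik3ip1: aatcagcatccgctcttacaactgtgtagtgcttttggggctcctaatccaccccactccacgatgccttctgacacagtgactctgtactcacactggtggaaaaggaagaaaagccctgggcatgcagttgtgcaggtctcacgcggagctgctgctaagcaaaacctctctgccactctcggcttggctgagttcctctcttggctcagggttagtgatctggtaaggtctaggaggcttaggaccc
Igf1r: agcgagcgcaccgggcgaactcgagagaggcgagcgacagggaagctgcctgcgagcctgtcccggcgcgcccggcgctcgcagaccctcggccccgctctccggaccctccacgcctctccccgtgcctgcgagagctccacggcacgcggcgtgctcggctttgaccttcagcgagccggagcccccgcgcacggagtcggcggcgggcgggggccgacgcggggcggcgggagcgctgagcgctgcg
Irs2: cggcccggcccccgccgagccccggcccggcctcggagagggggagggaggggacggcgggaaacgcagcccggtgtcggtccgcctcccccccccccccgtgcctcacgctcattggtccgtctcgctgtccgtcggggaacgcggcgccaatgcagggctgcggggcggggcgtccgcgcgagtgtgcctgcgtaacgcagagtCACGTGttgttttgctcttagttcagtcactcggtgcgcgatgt
The motifs were GTAAACA, the core of the Foxo binding site, and CACGTG, a form of the E-box. Other forms were not searched for. The Txnip sequence held GTAAACA beginning 121 bases before the start. The Irs2 sequence held CACGTG beginning 44 bases before the start. The Pik3ip1 and Igf1r sequences held neither. Sequences of this length were found for 7 of the 8 genes in 8 windows, and GTAAACA was in 2 of these 8, those of Txnip and Akt1. Among all 32851 windows GTAAACA was in 3.17% and CACGTG in 6.02%. A match describes the sequence only.

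Values are MAS5 signals in arbitrary units, and differences are Mll-deficient minus control on the scale of log2(signal + 16), which understates the change of dim probe sets. All 10 arrays had the same trimmed mean signal. Control replicate 5 stood apart: its mean correlation with the other controls was 0.926, and its log2 ratio of 3' to middle signal of Gapdh and Actb, a measure of RNA quality, was 5.19, against 1.73 to 3.40 in the other controls and 2.36 to 3.86 in Mll-deficient arrays. This array also read 2751 for erythroid Slc4a1 and 130 for Alas2, where other controls read 11.1 to 97.2 and 2.32 to 36.5. Csf1r, a monocyte gene, read 19208 in it and 2594 to 4994 in the other controls. Its Klf1 (289) and Gata1 (426) lay within the range of the other controls. These genes were named after their values were seen, and what set the array apart was not tested. Calls and counts that this array changed among the 8 genes, the Foxo targets and the marker lists are given with and without it. Of the LSK/CD48- gate genes, Kit averaged 72.3 in Mll-deficient and 126 in control arrays. Its ranges, 27.7 to 94.1 and 101 to 181, did not overlap, and its difference of -0.73 ± 0.27 did not pass (SE, limma adjusted p = 0.132). Among all tested genes 2.54% were fully separated and lower. Cd48 averaged 124 in Mll-deficient and 109 in control arrays, with overlap (0.25 ± 0.33, adjusted p = 0.722). Ly6a was not analysed here. The brighter of the 2 probe sets of Kmt2a, the gene of Mll, read 304, 257, 255, 52.2 and 211 in Mll-deficient arrays and 257, 399, 214, 262 and 170 in controls. The dimmer one read 25.4, 99.0, 31.8, 64.9 and 27.2 in Mll-deficient arrays and 73.2, 106, 43.8, 77.2 and 72.9 in controls. Both overlapped between the groups, and their position relative to the deleted exons was not examined, which leaves the genotype labels unchecked by them. Summed signals of 10 erythroid marker genes lay between 14704 and 16705 in Mll-deficient arrays and between 3908 and 7250 in controls, with 0 of the 10 below the filter on dim probe sets. Of these, 7 rose in Mll-deficient cells (Tfrc, Epor, Car1, Gata1, Aqp1, Klf1 and Ermap), by 1.16 to 3.40 on the log2 scale (limma adjusted p under 0.05). Among all tested genes 3.76% were called higher and 1.76% lower. Sums over 7 stroma and endothelium genes lay between 199 and 255 in Mll-deficient arrays and between 295 and 472 in controls, and those of 7 T and natural killer cell genes lay between 692 and 1639 in Mll-deficient arrays and between 449 and 705 in controls. Below the filter were 2 of these stroma and endothelium genes and 3 of the T and natural killer cell genes. Of the 4 T and natural killer cell genes tested, 0 passed. Of the marker lists besides the erythroid one, Mecom (-2.83), Hlf (-1.48) and Vcam1 (-0.81) fell. Without control replicate 5, 9 of the 10 erythroid genes rose, 4 of 9 gate and stem cell genes fell where 2 fell with it, and 0 of 5 tested stroma and endothelium genes fell, so the call of Vcam1 was lost. In the same fit 1 of 5 megakaryocyte genes fell and 2 of 10 granulocyte and monocyte genes rose, where 0 of either list had passed. Calls over all tested genes also rose in that fit, to 4.40% higher and 2.55% lower. The part of these cell types in the results below was not tested, and in sorted bulk cells fewer cells of a type and less RNA per cell cannot be told apart.

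No probe set of the 8 genes passed the test between the groups. Of the 24 probe sets, 17 were bright enough to be tested and 7 lay below the filter (a mean signal of about 12.2). Of the 17, 0 passed limma's test at an adjusted p of 0.05, while 3.28% of all 27022 tested probe sets passed (573 or 2.12% higher and 314 or 1.16% lower, and 812 higher and 205 lower when each array was centred on its median). At an unadjusted p of 0.05, 4 of the 17 passed, 1 each of Txnip and Pik3ip1 and 2 of Igf1r, all lower in Mll-deficient cells, and 18.3% of all tested probe sets. Mll-deficient and control arrays were fully separated for 2 of the 17, 1 of Pik3ip1 and 1 of Igf1r, both lower in Mll-deficient cells, against 2.42% of all tested probe sets. Differences lay below 0 for 14 of the 17, with a median of -0.31, and for 57.1% of all tested probe sets, with a median of -0.07.

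**Figure D1:**
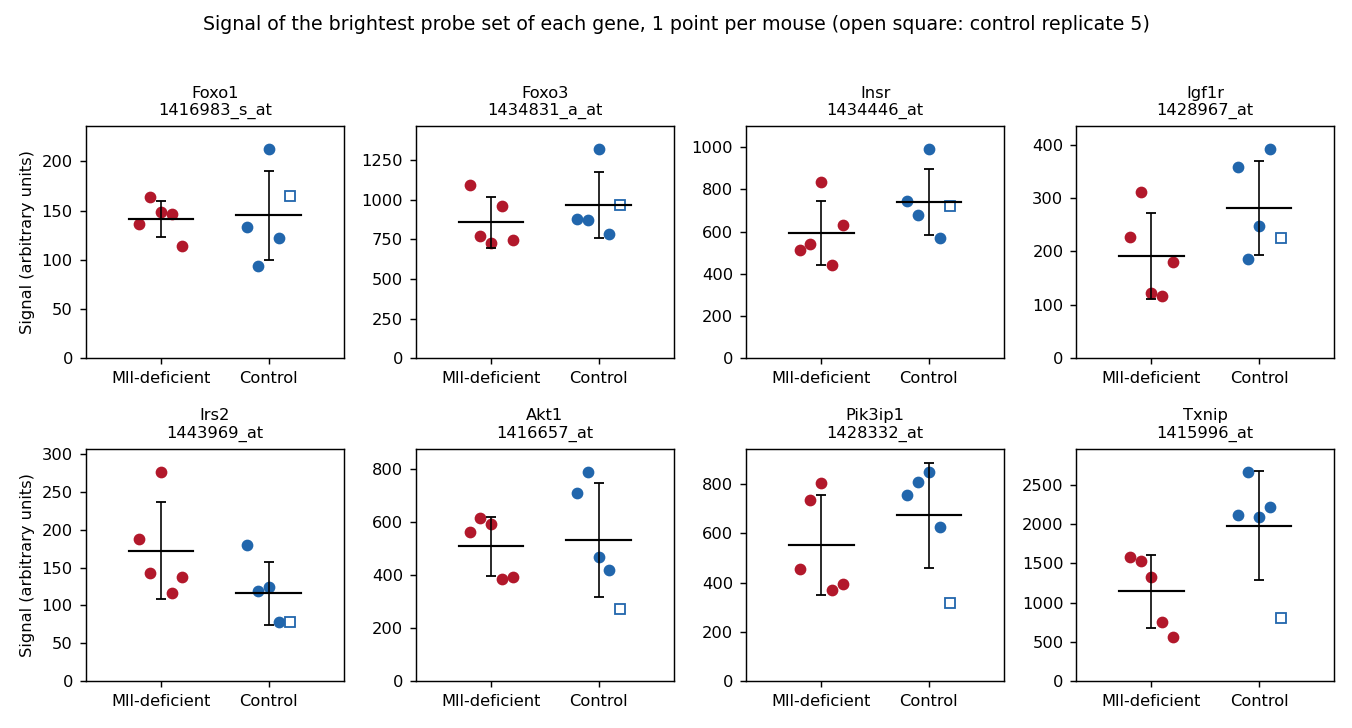
Signal (arbitrary units, linear axes from 0) of the brightest probe set of each of the 8 genes, with 1 point per mouse, a line at the group mean and bars of 1 SD (n = 5 each); the open square is control replicate 5. The groups overlap in every panel, and for Txnip the overlap comes from control replicate 5, at 803 among controls that otherwise read 2094 or more.

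The Foxo factors had signals that overlapped between the groups. Foxo3, the family member best known for stem cell quiescence in the mouse, read 1094, 770, 726, 962 and 746 in Mll-deficient cells and 882, 876, 1321, 784 and 970 in control cells (probe set 1434831_a_at). The means were 860 ± 162 and 966 ± 209 (SD, n = 5 each, Mll-deficient first), a difference of -0.16 with a 95% interval from -0.61 to 0.28 (limma adjusted p = 0.749). The highest Mll-deficient array was above 4 of the 5 controls. A second tested probe set of Foxo3, 1434832_at, had a difference of -0.07 ± 0.23 (SE, adjusted p = 0.913).

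Foxo1 read 136, 163, 148, 147 and 114 in Mll-deficient cells and 134, 93.8, 213, 122 and 165 in control cells (1416983_s_at). Its controls spanned more than the Mll-deficient arrays and enclosed all of them. The difference was 0.00 with an interval from -0.48 to 0.49 (limma adjusted p = 0.995). Its other tested probe sets differed by -0.13 ± 0.27 and -0.19 ± 0.23 (SE). Foxo4, a further factor of the family, read between 48.9 and 102 in Mll-deficient cells and between 25.6 and 71.3 in controls, a difference of 0.30 ± 0.26 (SE, limma adjusted p = 0.562). Foxo1 against Foxo3 within each array gave a log2 ratio of -2.46 ± 0.31 in Mll-deficient cells and -2.63 ± 0.23 in control cells (SD, n = 5 each). The change in this mean ratio, 0.17, did not pass (two-sided exact permutation p = 0.381, 0.595 after adjustment over 2 such pairs). The smallest p possible in this permutation test was 0.00794.

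Among the receptors, all 5 probe sets of Igf1r, the receptor of insulin-like growth factor, had differences below 0, and 0 of the 5 passed. The brightest, 1428967_at, read 227, 312, 123, 117 and 180 in Mll-deficient cells and 357, 185, 247, 392 and 226 in control cells. Mll-deficient replicates 1 and 2 reached into the control range, and the difference was -0.55 ± 0.28 (SE, limma adjusted p = 0.316). Probe set 1452982_at, designed from the same accession, read 192, 183, 154, 115 and 92.4 in Mll-deficient cells and 276, 257, 257, 202 and 223 in control cells. Here every Mll-deficient array lay below every control, by a narrow margin of 192 against 202, with a difference of -0.70 ± 0.23 (SE, adjusted p = 0.107). The dimmest, 1452108_at, had means of 11.9 ± 8.45 and 29.3 ± 14.4 (SD, n = 5 each, Mll-deficient first), differing by -0.70 ± 0.27 (SE, adjusted p = 0.167). The remaining pair, 1446303_at and 1426565_at, differed by -0.44 ± 0.29 and -0.31 ± 0.38 (SE). Without control replicate 5, which read 23.9 on 1426565_at where the other controls read 120 to 185, that probe set differed by -0.72 ± 0.28 (adjusted p = 0.162). All 5 stayed below 0 in every alternative fit in which they were tested and in those that left out 1 array. The dimmest, 1452108_at, was not tested under the stricter filter at the 60th percentile.

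The insulin receptor gene Insr read 512, 541, 834, 441 and 632 in Mll-deficient cells and 746, 677, 991, 567 and 720 in control cells (1434446_at). The groups overlapped broadly, with a difference of -0.33 and an interval from -0.80 to 0.15 (limma adjusted p = 0.480). Its other 2 probe sets were below the filter. Insr against Igf1r within each array gave a log2 ratio of 1.60 ± 0.71 in Mll-deficient cells and 1.37 ± 0.59 in control cells (SD, n = 5 each). The change of 0.23 did not pass (two-sided exact permutation p = 0.595, and 0.595 after adjustment).

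Irs2, the adaptor that links these receptors to PI3K and itself a gene that Foxo factors activate, had the highest difference of the 8 genes by brightest probe set, which lay above 0 and did not pass. It read 188, 143, 277, 117 and 137 in Mll-deficient cells and 180, 119, 124, 78.2 and 77.7 in control cells (1443969_at). Mll-deficient replicate 3 was the highest array, and the groups overlapped between 117 and 180. The difference was 0.51, with an interval from -0.06 to 1.08 (limma adjusted p = 0.337). It had no other probe set, and it stayed above 0 in all the fits run.

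Akt1, the kinase that inactivates Foxo proteins, read 561, 616, 592, 384 and 394 in Mll-deficient cells and 712, 791, 467, 419 and 272 in control cells (1416657_at). Both extremes were controls, and the difference was 0.01 with an interval from -0.57 to 0.59 (limma adjusted p = 0.994). A dimmer probe set, 1440950_at, differed by -0.60 ± 0.30 (SE, adjusted p = 0.301). The other pair was below the filter.

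Pik3ip1 encodes a transmembrane protein that binds the catalytic subunit of PI3K and restrains it. Its brightest probe set, 1428332_at, read 456, 737, 804, 370 and 395 in Mll-deficient cells and 758, 810, 851, 627 and 319 in control cells. Both groups held high and low arrays, the lowest being control replicate 5, and the difference was -0.27 ± 0.29 (SE, limma adjusted p = 0.682). Without that array it was -0.51 ± 0.25 (adjusted p = 0.264). The dimmer probe set, 1439087_a_at, read 58.4, 43.8, 22.9, 56.5 and 36.6 in Mll-deficient cells and 92.8, 72.4, 148, 61.9 and 77.3 in control cells. Every Mll-deficient array lay below every control. This difference, -0.82 ± 0.26 (SE), was the largest in size of the 17 tested and had the lowest adjusted p, 0.0927. Adding the RNA quality measure as a covariate gave -0.83 ± 0.25, which passed narrowly (adjusted p = 0.0493), and without control replicate 5 it did not pass (-0.86 ± 0.27, adjusted p = 0.0896).

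**Figure D2:**
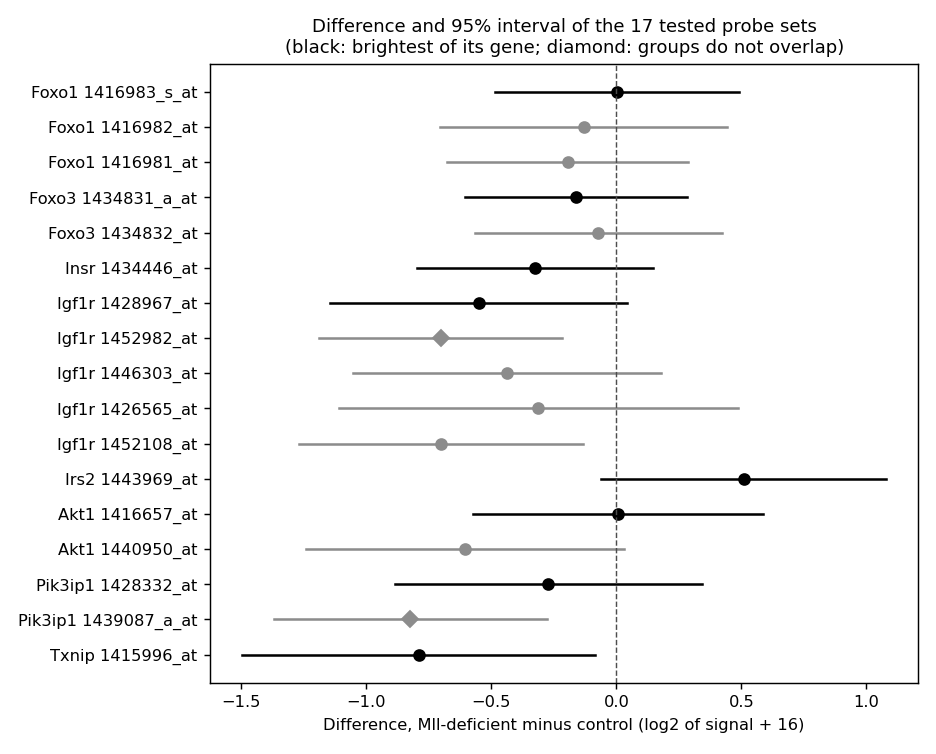
Difference between Mll-deficient and control arrays (x axis, log2 of signal + 16) with its 95% interval for each of the 17 tested probe sets, grouped by gene; black marks the brightest probe set of a gene and diamonds mark probe sets whose groups do not overlap. The 5 Igf1r probe sets lie between -0.70 and -0.31, Irs2 at 0.51, and the brightest probe sets of Foxo1 and Akt1 at 0.00 and 0.01.

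Txnip encodes an arrestin-like protein that binds thioredoxin and lowers glucose uptake, and it responds both to Foxo factors and to glucose. It read 1579, 1527, 1326, 748 and 556 in Mll-deficient cells and 2126, 2672, 2094, 2228 and 803 in control cells (1415996_at). All Mll-deficient arrays lay below 4 of the 5 controls, and control replicate 5 lay among the lowest. The means were 1147 ± 467 and 1984 ± 700 (SD, n = 5 each, Mll-deficient first), a difference of -0.79 ± 0.34 (SE) that did not pass (limma adjusted p = 0.215).

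The Txnip call depended on control replicate 5. Without it, the other 4 controls averaged 2280 ± 267 (SD, n = 4), and Txnip fell by 1.09 ± 0.28 in Mll-deficient cells (SE, limma adjusted p = 0.0343), the only 1 of the 17 probe sets called, where 1.58% of all tested probe sets were called lower. Txnip signal also moved with the RNA quality measure: the 3 arrays with the highest 3' to middle ratio, control replicate 5 (5.19) and Mll-deficient replicates 5 (3.86) and 4 (3.62), were the 3 with the lowest Txnip signal. With that ratio as a covariate the difference was -0.69 ± 0.20 (SE, adjusted p = 0.0397). In that fit 2 of the 17 probe sets passed, those of Txnip and Pik3ip1, where 3.74% of all tested probe sets were called lower. The ratio itself averaged 3.14 ± 0.60 in Mll-deficient and 2.95 ± 1.41 in control arrays (SD, n = 5 each). These means did not differ detectably (two-sided exact permutation p = 0.810).

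**Figure D3:**
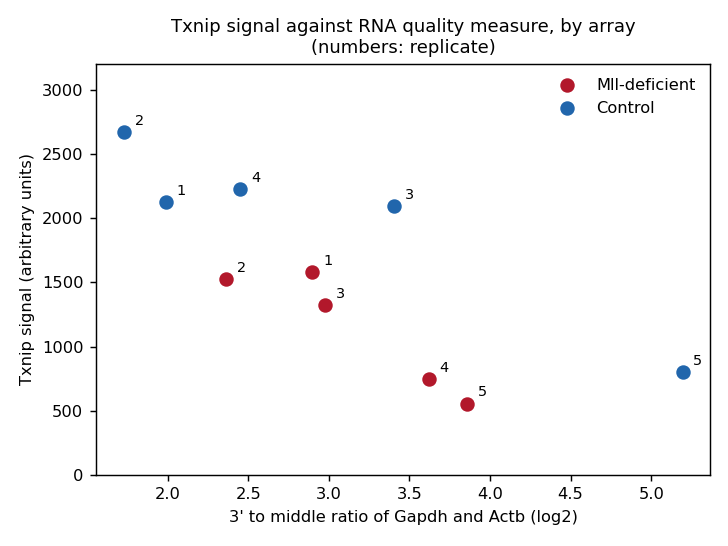
Txnip signal (y axis, arbitrary units, from 0) against the log2 ratio of 3' to middle signal of Gapdh and Actb (x axis), with 1 point per array numbered by replicate. At ratios up to 3.40 the 3 Mll-deficient arrays read 1326 to 1579 and the 4 control arrays 2094 to 2672, and the 3 arrays at higher ratios read 556 to 803.

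Across the 10 arrays the brightest probe sets of some of the 8 genes varied together. As deviations from the group means, Txnip had a correlation of 0.82 with Pik3ip1 and 0.84 with Akt1, Pik3ip1 had 0.81 with Akt1, and Foxo1 had 0.57 with Foxo3. Irs2, whose difference between the groups lay above 0, had 0.70 with Akt1, 0.67 with Pik3ip1 and 0.64 with Insr, while Txnip had 0.02 with Foxo3 and -0.10 with Foxo1. These are descriptions over 10 arrays that share differences in RNA quality. The 3 genes most like Txnip over the arrays, of 12580 tested, were Ica1, an islet cell autoantigen gene (r = 0.988), Pygl, the liver form of glycogen phosphorylase (r = 0.960), and Gyg, the primer of glycogen synthesis (r = 0.955). Their correlations as deviations from the group means were 0.986, 0.947 and 0.939, and 0 of these 3 genes passed the test. Those most like Igf1r were Agtpbp1, Tmem127 and Tbk1, with r between 0.921 and 0.939, and 0 of these passed either.

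Textbook Foxo target genes were examined as a list that also held Txnip, Pik3ip1, Irs2 and Insr. Of 35 listed, 29 were tested, each by its brightest probe set, and 5 fell in Mll-deficient cells (Fbxo32, Ccng2, Tnfsf10, Sesn1 and Il7r), 0 rose and 24 did not pass. Among all 12580 tested genes 5.52% were called, 1.76% as lower. The median difference was -0.55 for the list and -0.04 for all tested genes, and 24 of the 29 lay below 0, as did 53.4% of all tested genes. For 4 of the 29 the 2 sets of arrays were fully separated, all lower, against 2.54% of all tested genes. The list was chosen with results of these arrays known and no set test was made. It was not split into genes that Foxo factors activate and genes that they repress. The count of falls was 5 without control replicate 5 (2.55% of all tested genes), 10 with the RNA quality covariate (5.14%) and 1 when each gene was given the mean of its probe sets (1.97%). It was 3, 2 and 2 without Mll-deficient replicates 1, 3 and 5 (1.13%, 0.747% and 0.596% of all tested genes). Leaving out control replicate 1, 3 or 4 gave 2, 2 and 3 falls (0.787%, 0.676% and 0.684%).

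**Figure D4:**
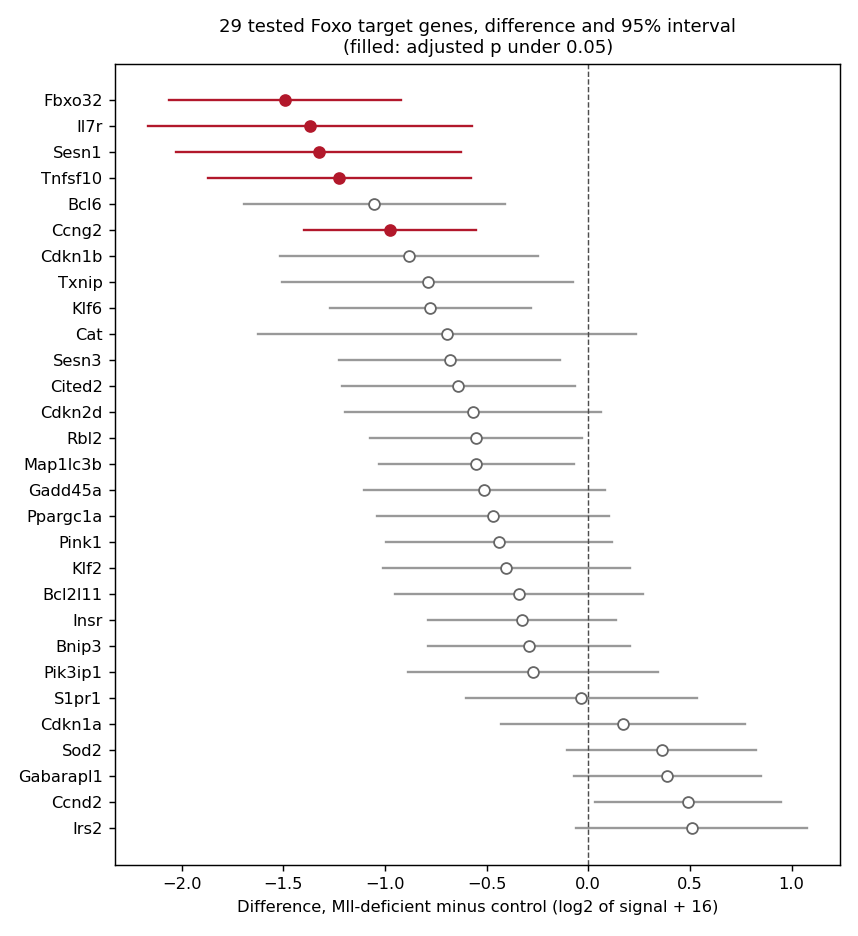
Difference between Mll-deficient and control arrays (x axis, log2 of signal + 16) with its 95% interval for each of the 29 tested Foxo target genes, ordered by difference; filled points have an adjusted p under 0.05. The 5 filled points, all below 0, run from -1.49 (Fbxo32) to -0.98 (Ccng2), and Irs2 is the highest at 0.51.

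Fbxo32, which encodes the F-box protein atrogin-1 of a ubiquitin ligase, read 15.0, 30.5, 36.8, 43.3 and 20.9 in Mll-deficient cells and 76.8, 118, 85.5, 91.2 and 202 in control cells. The groups were well apart, and it fell by 1.49 ± 0.27 on the log2 scale (SE, limma adjusted p = 0.00516), 2.82-fold lower. Its dimmer probe set differed by -0.55 ± 0.30 (adjusted p = 0.348), and the mean of its probe sets did not pass (-0.61, adjusted p = 0.0527).

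Ccng2, an unconventional cyclin linked to cell cycle arrest, read 717, 785, 684, 640 and 528 in Mll-deficient cells and 1305, 971, 1378, 1385 and 1681 in control cells. No array of one group entered the range of the other, and it fell by 0.98 ± 0.20 (SE, limma adjusted p = 0.0106), 1.97-fold lower. Its call, like that of Fbxo32, was kept in all 10 fits that left out 1 array. A second probe set with mean signals near 13 in both groups had a difference of 0.04 ± 0.26, and the mean of the probe sets did not pass (-0.47, adjusted p = 0.107).

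Sesn1, a sestrin that restrains mTOR complex 1 under stress, read 501, 1461, 279, 727 and 698 in Mll-deficient cells and 1532, 1131, 2218, 1903 and 1542 in control cells. Mll-deficient replicate 2 alone reached the control range. It fell by 1.33 ± 0.33 (SE, limma adjusted p = 0.0285), and a second probe set, 1438931_s_at, fell by 1.25 ± 0.31 (adjusted p = 0.0343). The other Sesn1 probe sets did not pass, at -1.07 ± 0.32 and -0.20 ± 0.24 (adjusted p = 0.0808 and 0.731).

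Tnfsf10, the gene of the death ligand TRAIL, read 53.9, 71.2, 19.7, 46.1 and 24.5 in Mll-deficient cells and 98.7, 110, 152, 192 and 59.8 in control cells. The groups overlapped through control replicate 5 only, and it fell by 1.22 ± 0.31 (SE, limma adjusted p = 0.0281). The remaining Tnfsf10 probe sets differed by -0.88 and -0.38 and did not pass. Il7r, the interleukin 7 receptor gene, read between 31.6 and 155 in Mll-deficient cells and between 164 and 549 in control cells, without overlap. It fell by 1.37 ± 0.38 (SE, limma adjusted p = 0.0443), and its second probe set differed by -0.47 ± 0.33 (adjusted p = 0.492). In the fit over all tested probe sets, which gave that second value, its brightest probe set did not pass either (limma adjusted p = 0.0530). The Il7r call did not survive in 6 of the 10 leave-one-out fits, nor with the offset of 1, quantile normalization, median centring, no filter or averaged probe sets (adjusted p between 0.0576 and 0.144). The Tnfsf10 call was also lost with no filter and with averaged probe sets (adjusted p = 0.0530 and 0.0569). The calls of Sesn1 and Tnfsf10 were lost in 6 and 5 of those fits, where the highest adjusted p was 0.0778 for Sesn1 and 0.0826 for Tnfsf10.

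Of the 24 listed targets that did not pass, the transcriptional repressor gene Bcl6 (-1.05 ± 0.30, limma adjusted p = 0.0528), the zinc finger factor gene Klf6 (-0.78 ± 0.23, adjusted p = 0.0619) and the cell cycle inhibitor gene Cdkn1b (-0.88 ± 0.30, adjusted p = 0.0995) had the next smallest adjusted p, and were named after their values were seen. The antioxidant enzyme genes Sod2 and Cat, also named after their values were seen, differed in opposite directions. The differences were 0.36 ± 0.22 and -0.69 ± 0.44 (adjusted p = 0.381 and 0.402).

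Other steps of the pathway were described by lists of their genes. Over the 9 lists together, 126 of 143 genes were tested, 6 fell, 2 rose and 118 did not pass. Among all tested genes 5.52% were called, 1.76% as lower and 3.76% as higher. Of the 6 that fell, 5 were on the Foxo target list. The median difference was -0.23 over the lists and -0.04 over all tested genes. Of 15 tested ligands, receptors and adaptors 0 passed (0 also at an unadjusted p of 0.05), with a median of -0.25. The adaptors Gab1 and Gab2 differed in opposite directions, at 0.43 ± 0.21 and -0.60 ± 0.31 (SE, limma adjusted p = 0.256 and 0.290). Of 11 tested PI3K subunits 0 passed, 5 had an unadjusted p under 0.05 (20.7% of all tested genes did) and the median was -0.44. Pik3c2a, a class II PI3K, read between 158 and 306 in Mll-deficient cells and between 389 and 588 in control cells, without overlap, a difference of -0.77 ± 0.22 (adjusted p = 0.0518). Pik3cb, a catalytic subunit, and Pik3r2, a regulatory subunit, differed by -0.87 ± 0.31 and 0.70 ± 0.25 (adjusted p = 0.111 and 0.120).

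Of 11 tested brakes on PI3K and Akt 0 passed (0 also at an unadjusted p of 0.05), with a median of -0.16. The lipid phosphatase gene Inpp4a and the Akt phosphatase gene Phlpp1 had differences of -0.64 ± 0.32 and -0.47 ± 0.27 (SE, limma adjusted p = 0.267 and 0.340), and the lipid phosphatase gene Inpp5e one of 0.27 ± 0.24. Of 11 tested genes of Akt and kinases beside it 0 passed, 2 had an unadjusted p under 0.05, a share near the 20.7% of all tested genes, and the median was -0.25. Those 2 were Sgk1 and Sgk3, kinases that also phosphorylate Foxo proteins, at -0.71 ± 0.30 and -0.57 ± 0.23 (adjusted p = 0.185 and 0.171). Foxk1, a forkhead factor, differed by -0.46 ± 0.23 (adjusted p = 0.282).

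Of 18 tested genes of the mTOR complexes and their control, 1 fell, 0 rose and 17 did not pass, with a median of -0.07. The fall was that of Sesn1, which is also on the Foxo target list. Among all tested genes 1.76% were called lower. Sesn3, another sestrin, differed by -0.68 ± 0.26, and Eif4ebp1, a translation repressor that mTOR inactivates, by 0.53 ± 0.22 (SE, limma adjusted p = 0.137 and 0.175). Of 18 tested Foxo cofactors and controls, 1 fell (against the same 1.76%), 0 rose and 17 did not pass. That 1 was Ep300, an acetyltransferase and coactivator, which read 356, 410, 190, 415 and 175 in Mll-deficient cells and 906, 444, 566, 791 and 543 in control cells. Its groups did not overlap, and it fell by 1.07 ± 0.28 (SE, limma adjusted p = 0.0350), although 6 of the 10 leave-one-out fits did not call it. Stk4, a kinase that activates Foxo proteins, and Ywhag, of the family of adaptors that hold Foxo in the cytoplasm, differed by -0.71 ± 0.21 and 0.54 ± 0.21 (adjusted p = 0.0579 and 0.162).

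Among 16 tested partners and relatives of Txnip, 2 rose, 0 fell and 14 did not pass, and 3.76% of all tested genes were called higher. Both that rose belong to the mitochondrial thioredoxin system. The cytosolic counterparts Txn1 and Txnrd1, named after their values were seen, differed by 0.10 ± 0.22 and -0.11 ± 0.39 (SE, limma adjusted p = 0.843 and 0.915). Txnrd2, the mitochondrial thioredoxin reductase gene, read 1131, 846, 1533, 741 and 1377 in Mll-deficient cells and 299, 404, 288, 259 and 268 in control cells. The groups were far apart, a rise of 1.80 ± 0.23 (SE, limma adjusted p = 0.000521), 3.49-fold, that was kept in all 12 alternatives and all 10 fits that left out 1 array. The dimmer pair of Txnrd2 probe sets differed by 0.92 and 0.37 (adjusted p = 0.0802 and 0.490).

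Txn2, mitochondrial thioredoxin, read 1290, 1183, 1791, 1419 and 1306 in Mll-deficient cells and 537, 1224, 566, 743 and 377 in control cells. Control replicate 2 alone reached the Mll-deficient range, and it rose by 1.10 ± 0.26 (SE, limma adjusted p = 0.0238), a call that 4 of the 10 leave-one-out fits did not make. Its other probe sets, with differences of 1.12 ± 0.32 and 0.73 ± 0.24, missed the threshold (adjusted p = 0.0635 and 0.112). Slc2a3, a glucose transporter gene, and Arrdc3, an arrestin relative of Txnip named after its values were seen, had differences of -0.61 ± 0.22 and -0.80 ± 0.30 (adjusted p = 0.113 and 0.135).

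**Figure D5:**
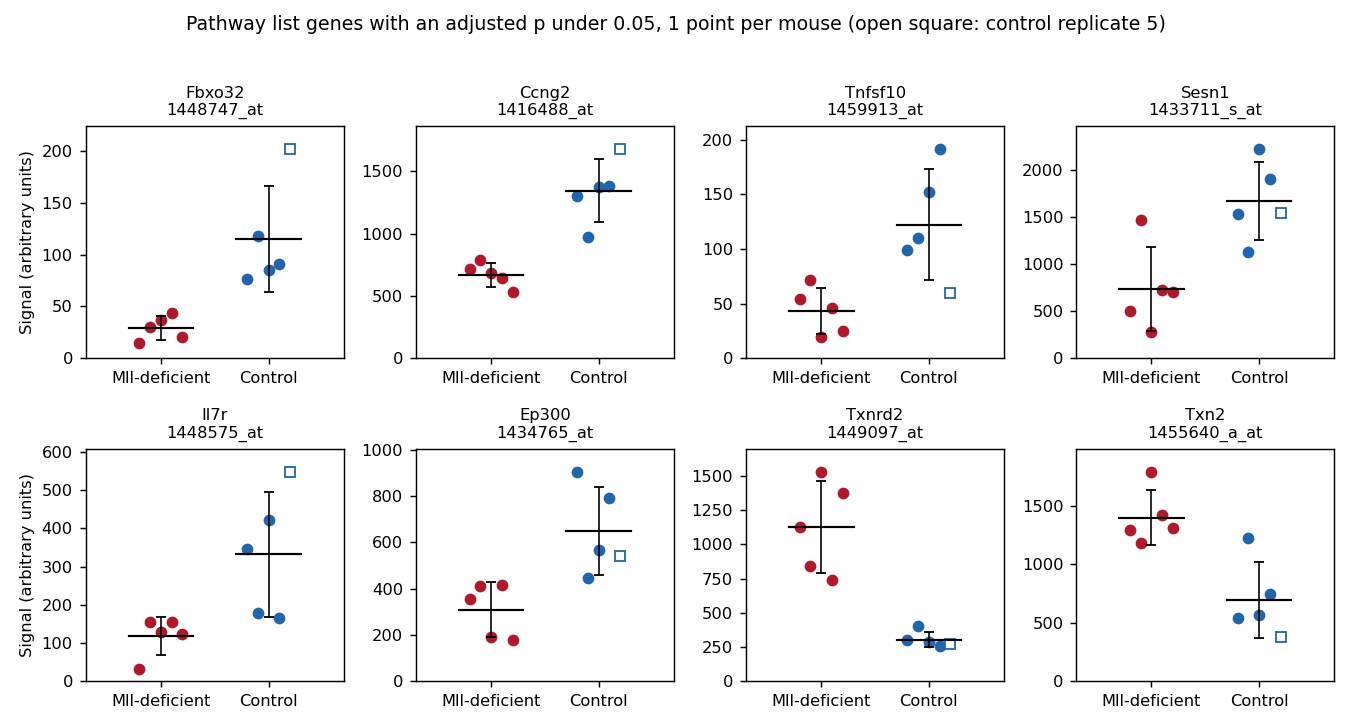
Signal (arbitrary units, linear axes from 0) of the 8 pathway list genes with an adjusted p under 0.05, with 1 point per mouse, a line at the group mean and bars of 1 SD (n = 5 each); the open square is control replicate 5. Fbxo32, Ccng2, Il7r and Ep300 are lower and Txnrd2 higher in every Mll-deficient array than in any control, while Tnfsf10, Sesn1 and Txn2 overlap by 1 array.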

How the data were processed

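Signals of 10 arrays, 1 per mouse, were taken from the series' value table. The deposited intensities are linear, and the submitters' processing notes name MAS5 5.0. The scaling constant, detection calls and filters are not given in the sources used here. After the lowest and highest 2% of probe sets were dropped, the mean was the same on all arrays, so differences in total RNA per cell are not seen, and the amplification of little RNA (1500 to 10000 cells, per the series' design text) favours 3' ends. The number of arrays limits the precision. No column was left unmapped. Symbols came from the platform annotation, updated through Entrez identifiers and RefSeq (GRCm38.p6). Of the probe sets 34958 had 1 symbol, 932 several and 9211 none, and those with several named no gene.

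Values were transformed as log2(signal + 16), and probe sets whose mean over all arrays was above the 40th percentile of all that were not array controls were tested with limma 3.58.1 in R 4.3.3. The prior variance of eBayes followed the mean signal, tests were two-sided, and p-values were adjusted by Benjamini-Hochberg over all 27022, with calls made under 0.05. Pathway lists used 1 probe set per gene, the brightest, in a second such fit over 12580 genes. Adjusted p values of the 8 genes and of further probe sets of list genes come from the first fit. Those of list genes by their brightest probe set or averaged probe sets come from the second. The second fit was tested on simulated data with 5 arrays per group and 50 genes changed by each of 4 amounts. It called 2 of 50 at a log2 change of 0.5, 20 at 1, 47 at 2 and 49 at 3. Of its 124 calls 6 were false. The simulation held fewer changed genes than the 694 called in the data, and the 8 genes were tested in the first fit. Its counts therefore do not give how often changes in the 8 genes would be missed. A gene without a call is not shown to be unchanged. The members, the lists and the tests were chosen with earlier results of these data known. The text names all members, list genes that passed, the 3 with the smallest p in each list, and the 3 genes most correlated with the 2 members of smallest p, judged by each member's brightest probe set (Txnip and Igf1r). Alternatives were other offsets (1 and 64), scalings, filters, priors, array weights, a replicate block, an RNA quality covariate, averaged probe sets and leaving out each array. Replicates are labelled as separate biological samples.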

Additional observations from a re-analysis of the deposited data

Results flagged for a closer look

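In 4 of 50 groups of 5 arrays, the highest or lowest array stood farther from the rest than Dixon's critical value of 0.71 of the group's range allows, where chance alone gives about 2.5. Control replicate 5 read 803 for Txnip 1415996_at, while the other controls read 2094 to 2672. The same array read 23.9 for Igf1r 1426565_at, while the other controls read 120 to 185. Control replicate 1 read 72.4 for Foxo1 1416981_at, while the other controls read 33.7 to 41.2. Mll-deficient replicate 1 read 31.6 for the Foxo target gene Il7r, while the other Mll-deficient arrays read 122 to 155.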

How the results depend on the processing

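Leaving out 1 array at a time moved the Txnip difference between -1.09 (without control replicate 5) and -0.56 (without Mll-deficient replicate 5), and the RNA quality covariate gave -0.69 (limma adjusted p = 0.0397). Differences near 0 changed sign: Akt1 1416657_at was -0.00055 after quantile normalization, -0.13 with array weights and -0.20 to 0.17 without 1 array, and Foxo1 1416983_s_at was -0.0033 with the offset of 64, -0.020 with the covariate and -0.12 to 0.14 without 1 array. Without 1 array Foxo1 1416982_at ran from -0.29 to 0.021 and Foxo3 1434832_at from -0.24 to 0.0045, and that Foxo3 probe set was 0.022 after median centring. The change in the Insr to Igf1r ratio ran from -0.028 to 0.43 without 1 array. The cause of these changes was not tested.

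Among the probe sets of the 8 genes, 2 were called lower with the covariate and 0 to 1 without 1 array. Over all tested probe sets, 205 were called lower (812 higher) after median centring, 166 with no filter, 479 with array weights, 1011 (1422 higher) with the covariate and 56 to 427 (252 to 702 higher) without 1 array. Foxo target genes called lower numbered 3 with no filter, 8 with array weights, 10 with the covariate, 1 with averaged probe sets and 2 to 7 without 1 array. Genes of all 9 lists called lower numbered 14 with the covariate and 2 to 9 without 1 array, and those called higher 1 to 2 without 1 array.

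Deviations of same-numbered arrays had correlations from -0.23 to 0.28. Only for Mll-deficient replicate 5 was the same-numbered control the best match. So few correlations cannot tell whether arrays of the same number shared handling. With the replicate number as a block, 503 probe sets were called higher and 278 lower, 0 of them of the 8 genes, and Txnip differed by -0.79 (limma adjusted p = 0.0774).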

Other observations

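Probe set 1444226_at, annotated to both Gm38485 and Foxo3 and so counted for neither, read 163, 204, 275, 261 and 170 in Mll-deficient cells and 158, 148, 124, 104 and 181 in control cells. Its difference of 0.53 ± 0.23 (SE, limma adjusted p = 0.225) did not pass and pointed upward, while both tested probe sets annotated to Foxo3 alone lay below 0.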
